A study of Caenorhabditis elegans with 2 samples.

Results

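The nuclear genes of the respiratory chain and the ATP synthase were examined for calls of ZK546.5 in third-stage (L3) larvae of Caenorhabditis elegans. They were chosen by name: every nuclear protein-coding gene of the ce11 annotation whose name starts with nuo-, cox-, cyc-, ucr-, sdha-, sdhb-, sdhd-, atp-, asb- or asg-, together with gas-1, isp-1 and mev-1. This gave 45 of 19973 nuclear protein-coding genes. The names cover more than chain subunits, since 8 of the cox- genes encode assembly factors of cytochrome c oxidase and 2 cyc- genes encode cytochrome c, the mobile electron carrier. The data were chromatin immunoprecipitation with sequencing (ChIP-seq) from 2 biological replicates of whole L3 animals, pooled males and females, of strain OP231. The genotype was unc-119(ed3) III with the transgene wgIs231, which supplies ZK546.5 fused at the C-terminal end to GFP and FLAG. Both replicates were of this 1 group, the age in hours is given as unknown, and the promoter that drives the transgene is not named by the labels. Chromatin came from whole animals, so a weaker signal in many cells and a stronger one in few cannot be told apart.

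The respiratory chain passes electrons from NADH (complex I) and succinate (complex II) through complex III and cytochrome c to cytochrome c oxidase (complex IV), and the proton gradient built on the way drives the ATP synthase. Most subunits are encoded in the nucleus and a few in mitochondrial DNA, so both genomes have to supply parts of the same complexes. In C. elegans several of these genes are known from mutants with altered lifespan or stress resistance, among them isp-1, gas-1, mev-1 and nuo-6. ZK546.5 is the protein that was tagged, and nothing about its function is taken as given here.

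Each deposited list gives calls, that is intervals with a summit and a signal value. A thresholded peak is a call that the submitters kept after the irreproducible discovery rate (IDR) step, and there were 261 of them, of which 235 were nuclear. The pooled list and each replicate list held 30000 calls, most of them far weaker, so a call below the threshold is a ranked position and not evidence of binding by itself. Rank 1 is the highest signal value in a list. Signal values are compared within a list only.

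The sequences under 6 of the 10 highest-ranked calls at these genes are shown first, since the same short words recur in 4 of them and are absent from 2. Those at atp-1, cox-5B, nuo-2 and cyc-1, which rank among these calls too, are described without sequence. Each is 151 bases of ce11, from the RefSeq copy of that assembly, centred on the pooled summit, read 5′ to 3′ on the strand of the gene, and capitals mark the words ACGCAG, also GACGCA, then CGAGAC, and lastly ACCGTA, or their reverse complements. These words had been found in an earlier analysis of the same peaks, so they describe the sites and support nothing. ACGCAG and GACGCA overlap each other by 5 bases. The cox-5A window (chrIII:12905123-12905273, plus strand) belongs to a subunit gene of cytochrome c oxidase with a thresholded peak, and the cox-6B window (chrIII:2785989-2786139, plus strand) to another. The cox-14 window (chrIII:10218724-10218874, plus strand) is that of the strongest call below the threshold. The atp-2 window (chrIII:5228090-5228240, plus strand) lies at the gene for the catalytic beta subunit, the ucr-2.1 window (chrX:12018227-12018377, plus strand) at that for a core protein of complex III, and the asb-2 window (chrX:4469427-4469577, plus strand) at that for a b subunit of the peripheral stalk.
cox-5A: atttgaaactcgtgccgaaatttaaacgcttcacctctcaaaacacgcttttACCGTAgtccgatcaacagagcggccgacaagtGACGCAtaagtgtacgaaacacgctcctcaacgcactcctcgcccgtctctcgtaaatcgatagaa
cox-6B: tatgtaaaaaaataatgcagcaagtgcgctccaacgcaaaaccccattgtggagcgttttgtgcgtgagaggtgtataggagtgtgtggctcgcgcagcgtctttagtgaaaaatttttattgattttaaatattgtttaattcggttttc
cox-14: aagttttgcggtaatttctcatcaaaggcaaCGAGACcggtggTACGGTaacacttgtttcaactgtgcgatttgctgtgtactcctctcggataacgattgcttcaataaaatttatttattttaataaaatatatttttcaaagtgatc
atp-2: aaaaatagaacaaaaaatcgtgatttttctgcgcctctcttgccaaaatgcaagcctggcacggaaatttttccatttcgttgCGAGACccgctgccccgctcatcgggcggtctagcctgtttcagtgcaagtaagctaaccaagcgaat
ucr-2.1: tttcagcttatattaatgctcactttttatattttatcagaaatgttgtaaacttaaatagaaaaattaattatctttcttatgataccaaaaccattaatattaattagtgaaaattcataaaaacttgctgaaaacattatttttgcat
asb-2: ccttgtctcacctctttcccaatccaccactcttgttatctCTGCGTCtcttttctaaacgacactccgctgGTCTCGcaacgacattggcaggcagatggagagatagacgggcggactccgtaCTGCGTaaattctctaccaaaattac
The cox-5A window holds ACCGTA and GACGCA, and the cox-14 window holds CGAGAC and ACCGTA, the latter on the other strand. The atp-2 window holds CGAGAC, the asb-2 window holds words at 3 places, and the cox-6B and ucr-2.1 windows hold none. GC content of these windows was 48.3% at cox-5A, 39.1% at cox-6B, 34.4% at cox-14, 47.7% at atp-2, 19.9% at ucr-2.1 and 49.7% at asb-2.

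Thresholded peaks marked atp-1, cox-5A and cox-5B, and also cox-6B, when its other annotated 5′ end was used. With the outermost 5′ end of each gene, 3 of 45 members (6.67%) had a thresholded summit within 500 bp, against 1.17% of all nuclear protein-coding genes (233 of 19973). All 3 members encode structural subunits, 2 of complex IV and 1 of the ATP synthase. None of the 7 complex I, 5 complex II and 7 complex III genes, of the 2 cytochrome c genes or of the 8 assembly factor genes had one. The groups are small, from 2 to 9 genes.

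The gene atp-1, for the alpha subunit of the catalytic head of the ATP synthase, had the highest signal value among the 45 genes. The pooled signal value was 1115 (rank 7 of 30000), that in replicate 1 was 417 (rank 12) and that in replicate 2 was 699 (rank 3). Both replicates thus placed it among their 12 strongest calls. The pooled summit, at position 12652272 of chromosome I (ce11), was 5 bp upstream of the annotated 5′ end, and the replicate summits were 16 bp apart, on either side of that end. The summit was also 185 bp upstream of mcrs-1, which is transcribed in the opposite direction, so the call cannot be given to atp-1 alone.

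The genes cox-5A and cox-5B encode nuclear subunits of cytochrome c oxidase. At cox-5A the pooled value was 130 (rank 84), with 65.5 in replicate 1 (rank 77) and 66 in replicate 2 (rank 93). The summit was in intergenic sequence 293 bp upstream of the 5′ end, the replicate summits lay 12 bp apart, and the nearest coding gene upstream, unc-71, was 13752 bp away. No other protein-coding 5′ end lay within 500 bp. At cox-5B the pooled value was 101 (rank 113), with 42.5 (rank 125) and 52.2 (rank 123) in replicates 1 and 2, and the replicate summits lay 41 bp apart. That summit fell in an untranslated exon, 30 bp inside the gene as Ensembl annotates it and 254 bp upstream of the RefSeq 5′ end, which lies 284 bp farther in. Its pooled summit is at position 9788755 of chromosome I. Both genes held ranks from 77 to 125 in both replicates.

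The gene cox-6B, for another subunit of cytochrome c oxidase, is annotated with 2 transcripts whose 5′ ends are 86539 bp apart, and so its gene interval spans 87197 bp. No call of any list lay within 500 bp of the outer end. The inner end, at position 2786202 on chromosome III, is also the RefSeq 5′ end, and 138 bp upstream of it was a thresholded summit with a pooled value of 57.3 (rank 231). Replicate 1 had 22.4 there (rank 928) and replicate 2 had 34.1 (rank 236), with summits 50 bp apart. The same summit was 116 bp from the 5′ end of Y71H2AM.20 on the other strand. Downstream on the strand of cox-6B, 788 bp from the summit, begins nduc-2, a gene with the name of a complex I subunit. With RefSeq 5′ ends 4 of 45 members (8.89%) were marked, against 1.16% of all genes, and 3 of the 4 were structural subunits of complex IV, out of 7 such genes.

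**Figure D1:**
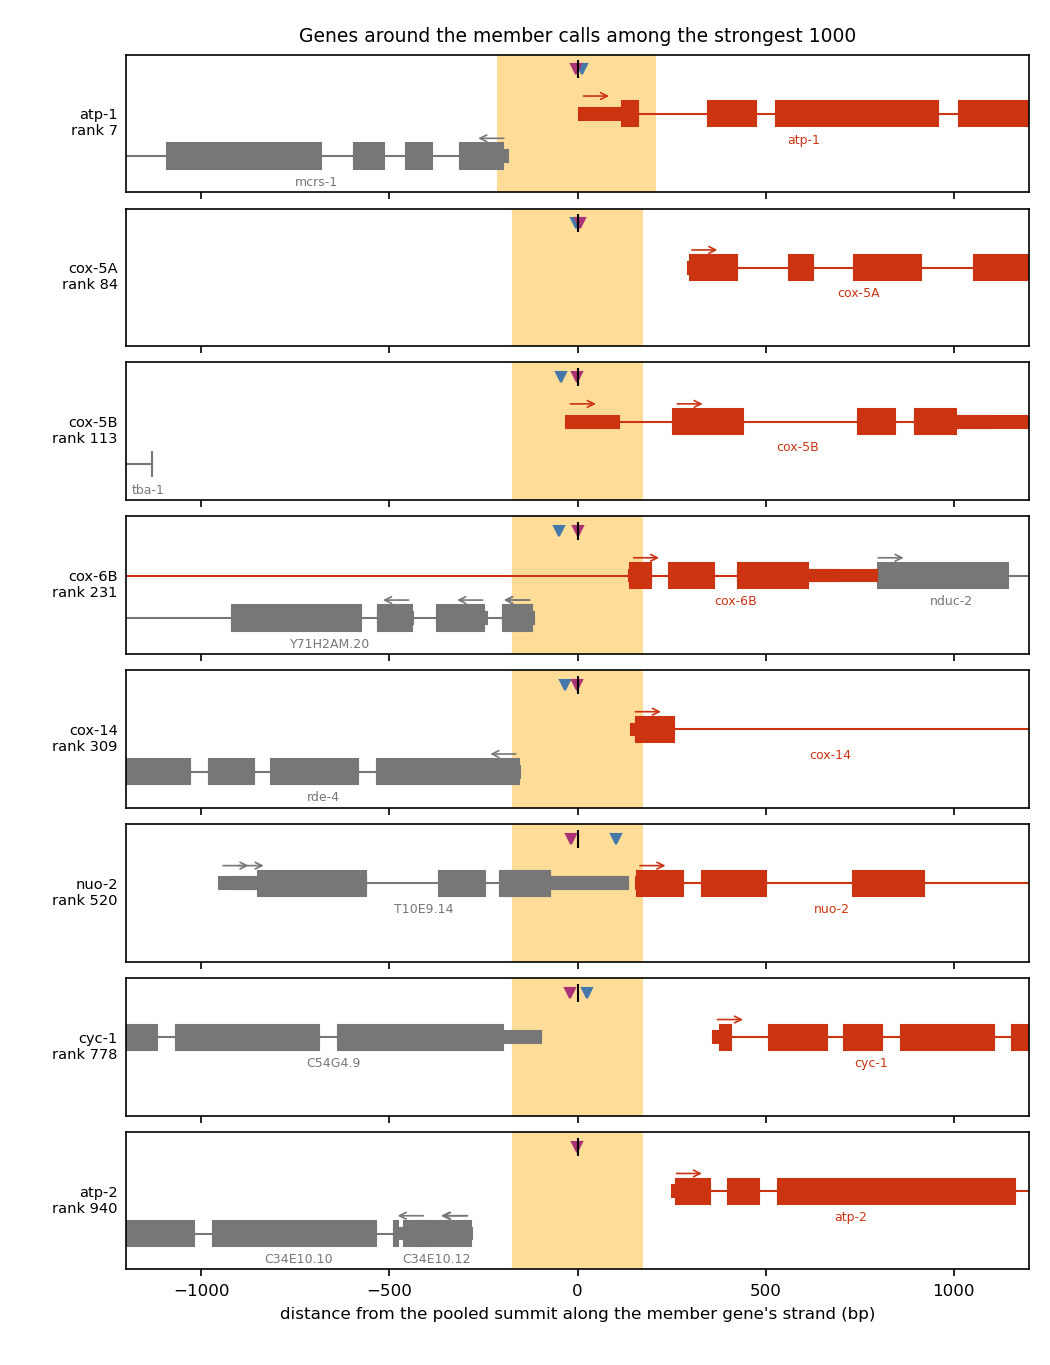
Maps of the 7 member calls among the strongest 1000 of the pooled list and of the cox-6B call, drawn along the strand of the member gene as distance from the pooled summit in bp. Member genes are red and other coding genes grey, thick boxes are coding exons, thin boxes untranslated exons, arrows annotated 5′ ends, shading the called interval, and triangles the replicate 1 (blue) and replicate 2 (purple) summits; atp-1, cox-6B, cox-14 and atp-2 have a gene on the other strand close by, while cox-5A has none within the map.

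Below the threshold came genes of several complexes. The lowest thresholded signal was 51.5. Within 500 bp of 7 members (15.6%) lay a call among the strongest 1000 of the pooled list, against 2.86% of all nuclear protein-coding genes. Beside the 3 above these were cox-14, nuo-2, cyc-1 and atp-2. Taken from the replicate 1 list alone, without replicate 2, the count was 4, and cox-14, nuo-2 and atp-2 were not among them.

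The assembly factor gene cox-14 had a pooled value of 47.4 (rank 309), with 17.4 in replicate 1 (rank 3309) and 23.7 in replicate 2 (rank 468). Its summit was 143 bp upstream and also 153 bp upstream of rde-4, an RNA interference gene on the other strand. The complex I core subunit gene nuo-2 (human NDUFS3) had 38.8 (rank 520), with 11.7 (rank 14717) in replicate 1 and 24.3 (rank 434) in replicate 2. Its summit, at position 6532118 of chromosome I and 155 bp upstream, fell in an untranslated exon of T10E9.14, which ends 19 bp before nuo-2 on the same strand. Replicate 2 alone gave it a high rank.

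The cytochrome c1 gene cyc-1 showed the opposite pattern, with 34.9 in the pooled list (rank 778), 28.2 in replicate 1 (rank 293) and 12.5 in replicate 2 (rank 5244). The summit, at position 8024783 of chromosome I, was 361 bp upstream, and the replicate summits were 43 bp apart. At atp-2, for the catalytic beta subunit, the pooled value was 33.4 (rank 940). Replicate 2 had 19.3 (rank 917) and replicate 1 had no call within 500 bp. The atp-2 summit, 252 bp upstream, was 281 bp from the 5′ end of C34E10.10 and 284 bp from that of C34E10.12 on the other strand.

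The replicate lists were then read singly. In replicate 1, 4 of 45 members had a call among its strongest 1000, against 2.22% of all genes. In replicate 2 there were 7, against 2.83%. The members in both were atp-1, cox-5A and cox-5B. Those of replicate 1 included cyc-1, and those of replicate 2 included cox-14, nuo-2, atp-2 and cyc-2.1.

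**Figure D2:**
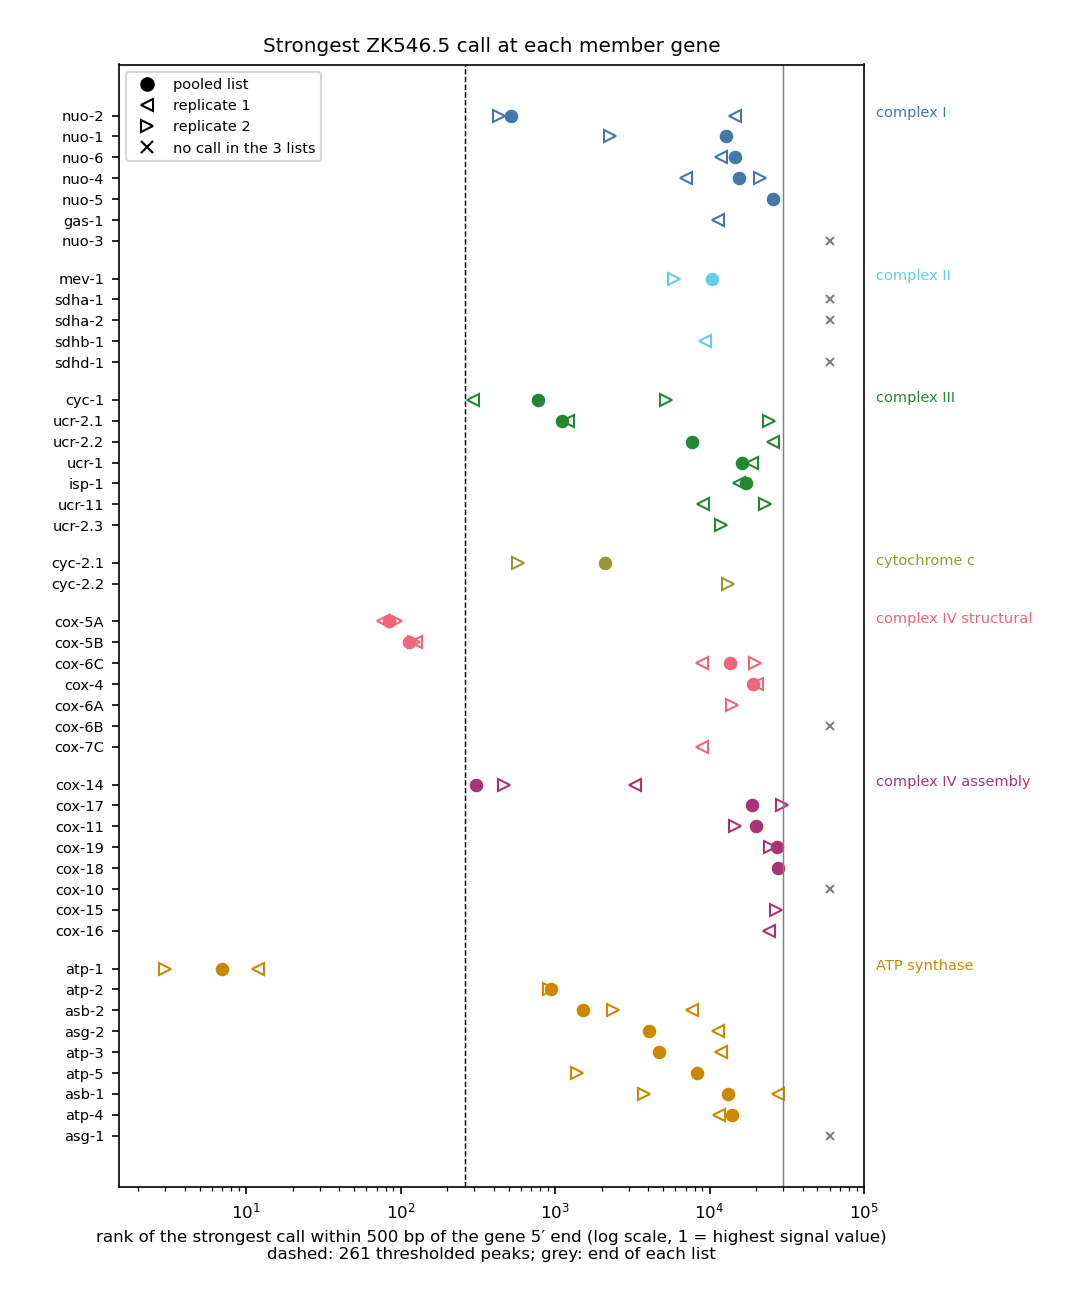
Rank of the strongest call within 500 bp of the 5′ end of each of the 45 genes, grouped by complex, on a log axis where 1 is the highest signal value. The outermost 5′ end was used, also at cox-6B. Filled circles are the pooled list, left and right triangles replicates 1 and 2, and crosses the 7 genes with no call in any of the 3 lists; atp-1, cox-5A and cox-5B are the genes left of the dashed line at 261 calls and their 3 symbols lie close together, while most others spread over the weaker ranks.

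Counting any of the 30000 pooled calls, 29 of 45 members (64.4%) had one within 500 bp, against 31.2% of all nuclear protein-coding genes. Among the strongest 15000 calls it was 20 members (44.4%), against 17.9%. Where a call was present, the median rank over the 29 members was 10390, against 12466 over the 6229 genes with a call, and the median signal values were 19.6 and 18.6. The median rank depended on the list: it was 5571 against 12156 in the replicate 2 list alone (without replicate 1), and 10305 against 12941 in the replicate 1 list alone. Member calls in the pooled list ran from 1115 at atp-1 to 13.5 at cox-18, close to the lowest value of the list, 13.0.

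**Figure D3:**
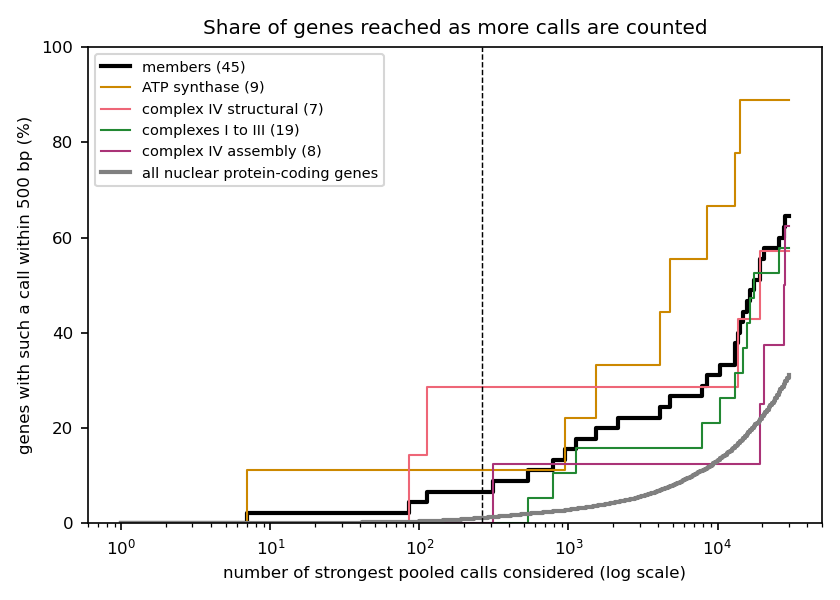
Share of genes (%) with a call within 500 bp as the number of strongest pooled calls considered rises (log axis), for all 45 members (black), for 4 sets of their complexes and for all nuclear protein-coding genes (grey). The black line is at 6.67% at the dashed line of 261 calls and ends at 64.4%, the grey line ends at 31.2%, and the ATP synthase line ends highest, at 88.9%.

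No call of any list lay within 500 bp of 7 members (15.6%, against 47.5% of all genes). These include cox-6B, which was taken at its outer 5′ end. The replicates shared fewer of the called genes. Replicate 1 had a call at 24 members (53.3%, against 31.2% of all genes) and replicate 2 also at 24 (53.3%, against 31.2%). Both had one at 12 (26.7%, against 13.4%). Of the 29 members with a pooled call, 11 had a call in both replicates, 8 in replicate 1 only, 8 in replicate 2 only and 2, nuo-5 and cox-18, in neither. The share with both, 37.9%, was near the 36.7% over all genes with a pooled call. At 5 of the 12 members with both, the replicate summits lay within 50 bp of each other (41.7%, against 25.9% of the 2667 genes with both), and these were atp-1, cox-5A, cox-5B, cox-14 and cyc-1. Without the 3 members with a thresholded peak, a set kept for its reproducibility, it was 2 of 9 (22.2%). At cox-6C the replicate summits were 594 bp apart, on opposite sides of the 5′ end, so they do not mark the same place.

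In complex I, which oxidises NADH, 5 of 7 genes had a pooled call (71.4%, against 31.2% of all genes). Beside nuo-2 the values were low: 18.4 at nuo-1, for the subunit that binds FMN (rank 12795), 17.6 at nuo-6, an accessory subunit (rank 14662), 17.3 at nuo-4, another accessory subunit (rank 15465), and 14.1 at nuo-5, the largest core subunit (rank 25666). The summits at nuo-4, nuo-5 and nuo-6 lay in introns of the genes themselves, 312 to 389 bp downstream of the 5′ end. The call at nuo-1 lay in a non-coding RNA gene and was also 407 bp upstream of the ribosomal protein gene rpl-36.A. The core subunit gene gas-1 had a call in replicate 1 alone (12.8, rank 11412), and nuo-3 had none in any list.

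In complex II, succinate dehydrogenase, 1 of 5 genes had a pooled call (20%, against 31.2% of all genes). This was mev-1, for a membrane anchor subunit, with a pooled value of 19.6 (rank 10390), a replicate 2 value of 12.1 (rank 5898) and no call in replicate 1. The summit was 94 bp upstream of mev-1 and 165 bp upstream of jmjd-4 on the other strand. The iron-sulfur subunit gene sdhb-1 had a call in replicate 1 alone (13.6, rank 9287). Both flavoprotein genes, sdha-1 and sdha-2, and the other anchor subunit gene sdhd-1 had no call in any list.

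In complex III, 5 of 7 genes had a pooled call (71.4%, against 31.2% of all genes). After cyc-1 came ucr-2.1, a core protein gene on X, with 32.3 (rank 1115), and with 21.3 in replicate 1 (rank 1215) but 6.88 in replicate 2 (rank 24206). Its paralogue ucr-2.2 had 21.3 (rank 7667) and 9.25 in replicate 1 (rank 25568), and ucr-2.3 had only a replicate 2 call (9.56, rank 11888). The core protein gene ucr-1 had 17 (rank 16228). The Rieske protein gene isp-1 had 16.7 (rank 17192), 74 bp downstream of its 5′ end, in an intron. The small subunit gene ucr-11 had calls in both replicates, 13.7 and 7.11, while its nearest pooled summit lay 502 bp away, just outside the window.

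The 2 cytochrome c genes differed in the pooled list. At cyc-2.1 the value was 28.3 (rank 2114), with 22.1 in replicate 2 (rank 573) and no replicate 1 call within 500 bp. That summit lay in an intron, 356 bp downstream of the Ensembl 5′ end and 207 bp upstream of the RefSeq one, around which replicate 1 did have a weak call (11.8, rank 14335). At cyc-2.2 there was a replicate 2 call only (9.18, rank 13197), and the nearest pooled summit was 8819 bp away.

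Among the 7 structural genes of complex IV, 4 had a pooled call (57.1%, against 31.2% of all genes). The values at cox-6C (18.1, rank 13489) and cox-4 (15.9, rank 19235) were far below those at cox-5A and cox-5B. The gene cox-6A had a replicate 2 call (8.94) and cox-7C a replicate 1 call (13.8) without a pooled call. The gene cox-6B had none at its outer 5′ end, but 57.3 (rank 231) at its inner one. The nearest pooled summit to cox-6A, with a signal of 26.5, was 804 bp away. Of the 8 assembly factor genes, 5 had a pooled call (62.5%, against 31.2% of all genes), and after cox-14 these were at most 16. They were cox-17, a copper chaperone gene (16), cox-11, which acts in copper insertion (15.7), cox-19 (13.6) and cox-18, which acts in membrane insertion (13.5). Those at cox-15 and cox-16 were in 1 replicate only, and cox-10, for an enzyme of heme A synthesis, had none.

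The ATP synthase was the most fully covered group, with a pooled call at 8 of 9 genes (88.9%, against 31.2% of all genes). All 8 were among the strongest 15000, against 17.9% of all genes. After atp-1 and atp-2 the values were 30.4 at asb-2 (rank 1518), 24.7 at asg-2 (rank 4042), 23.9 at atp-3 (rank 4732), 20.8 at atp-5 (rank 8302), 18.3 at asb-1 (rank 13089) and 17.9 at atp-4 (rank 13975). These genes encode stalk and membrane parts, with atp-3 for the oligomycin sensitivity-conferring protein, atp-4 for coupling factor 6, atp-5 for subunit d, asb-1 and asb-2 for subunit b and asg-1 and asg-2 for subunit g. Calls in both replicates were found at atp-1, asb-1 and asb-2 (33.3%, against 13.4% of all genes). At asb-2 these were 14.3 and 15.2 with summits 161 bp apart, and at asb-1 they were 8.86 and 13.6, 93 bp apart. The asg-2 summit lay nearer to glr-6 (157 bp) and the atp-5 summit nearer to lmtr-3 (10 bp) than to the ATP synthase gene. No call in any list was found at asg-1, whose nearest pooled summit was 2644 bp away.

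**Figure D4:**
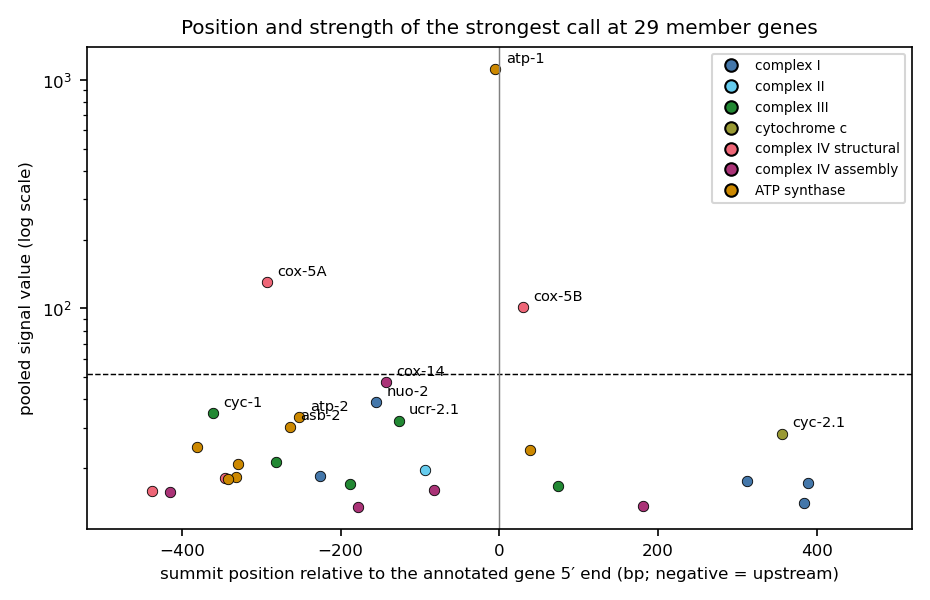
Pooled signal value (log axis) of the strongest call against its position relative to the annotated gene 5′ end (bp, negative is upstream) for the 29 genes with a call, coloured by group, with the lowest thresholded signal dashed. The summits of atp-1 and cox-5B sit within 30 bp of the 5′ end, 21 of the 29 summits lie upstream, and all but 3 points lie below the dashed line.

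Most member summits lay upstream of the 5′ end, 21 of 29 (72.4%, against 61.7% of all genes with a pooled call), at a median distance of 264 bp (244 bp over all genes). The summit was in intergenic sequence at 11 members, in an untranslated exon at 8, in an intron at 6, in a non-coding gene at 3 and in a coding exon at 1, cox-11, where the exon was of the neighbouring gene JC8.4. At 13 of 29 another protein-coding 5′ end lay within 500 bp of the summit. Neither this count nor the placement was taken over all genes, so whether they are usual is not known. Among protein-coding genes the member itself was nearest at 26 of 29 (89.7%, against 91.4% of all genes with a call). At 3 of these a non-coding RNA gene or pseudogene began nearer to the summit, namely C09H10.13 at nuo-1 (10 bp), F29C4.9 at cox-6C (122 bp) and WBGene00012355 at cox-4 (135 bp). The 16 members without a pooled call lay 502 to 8819 bp from the nearest summit, with a median of 2072 bp. For cox-6B the distance, 3080 bp, was measured from its outer 5′ end.

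The genes around the members differed from those around the average gene. A coding gene on the other strand began within 1000 bp upstream of 23 members (51.1%, against 17.5% of all genes). A gene on the same strand ended within 1000 bp upstream of 17 (37.8%, against 28.5%), an arrangement that in C. elegans is found in operons, and 5 had neither (11.1%, against 54.0%). The share with a pooled call was higher for the members in each arrangement: 56.5% against 36.9% with a divergent neighbour, 76.5% against 34.4% with a same-strand neighbour, and 3 of 5 against 27.6% with neither. For thresholded peaks the first of these pairs was close, 4.35% (1 of 23) against 4%. The 23 include cox-6B, taken at its outer 5′ end, so the thresholded peak at its inner end is not counted there. None of the 17 members with a same-strand neighbour had a thresholded peak, against 0.843% of all such genes. At that share 17 genes would seldom hold one. Both cox-5A and cox-5B belonged to the 5 with neither, where the share of all genes was 0.418%. At cox-5B this rests on the limit of 1000 bp, since tba-1 on the other strand began 1100 bp upstream.

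Chromosome X carried 6 of the 45 genes. Of these, ucr-2.1, asb-2, asg-2 and ucr-2.2 had a pooled call (66.7%, against 26.6% of all genes on X). Their values ran from 21.3 to 32.3, and gas-1 and sdha-1 had no pooled call. No member on X was among the strongest 1000, against 1.35% of all genes on X. At that share 6 genes would seldom hold one. The summits at all 4 lay upstream, as did 57.6% of those at all genes on X with a pooled call.

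Words and base composition were read in 100 bp (words) and 200 bp (GC) around the summits. At least 1 of the 4 words was present on either strand at 5 of the 7 member summits among the strongest 1000 (71.4%), against 36.6% of the 435 such summits at any nuclear coding 5′ end. Over all 29 member summits it was 9 (31.0%), against 10.1% of the 5697 summits at coding 5′ ends. ACCGTA was at atp-1, cox-5A and cox-14, and at no other member summit. The 5 among the strongest 1000 were atp-1, cox-5A, cox-14, cyc-1 and atp-2, and cox-5B and nuo-2 had none of the words. ACGCAG was at cyc-1, cox-4, asb-2 and ucr-1, so weak calls carried it too. In the promoters, from 250 bp before to 50 bp after the 5′ end, at least 1 word was found at 19 of 45 members (42.2%) and at 25.2% of all nuclear protein-coding genes. For single words these shares were 13.3% and 8.23% (ACGCAG), 11.1% and 8.78% (GACGCA), 17.8% and 8.09% (CGAGAC) and 15.6% and 8.11% (ACCGTA). Median GC content was 41.5% at the 7 summits (31.5 to 48.0%) and 34.8% at the other 22 (19.5 to 52.5%), beside 38.0% for the 435 and 32.0% for the 5697. At ucr-2.1 it was 22.0%, the second lowest after asg-2 with 19.5%. A word found in a window is a match of letters only.

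Other genes of the pathway were read as lists and are given by their counts. The first list, of 38 further genes, was taken by name. It held nduf-, nduv-, ndua-, ndub-, nduc-, nuaf- and coa- names with lpd-5, sco-1, sft-1, hpo-18, mai-1 and mai-2. Of the 38, 3 had a thresholded peak (7.89%, against 1.17% of all genes) and 19 a pooled call (50%, against 31.2%). The 3 were sco-1, which acts in copper delivery to complex IV (signal 86.1, 215 bp upstream), and 2 genes with names of complex I accessory subunits, ndua-8 (77.8, 265 bp upstream) and ndub-8 (64.6, 147 bp upstream). The genes nduf-11 (49.3, rank 287) and coa-1 (36.4, rank 658) came next. Thresholded peaks thus lay within 500 bp of genes with complex I names outside the 45, and of none of its 7 members. For this list and those below, other genes near the summits were not looked up, so a call may be shared.

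Of the 4 adenine nucleotide translocator genes, which exchange ADP and ATP across the inner membrane, ant-1.1 had a thresholded peak (634, rank 24) with 241 in replicate 1 (rank 35) and 398 in replicate 2 (rank 18). ant-1.2 had a weak call (21.1). Among 19 genes of pyruvate dehydrogenase and the tricarboxylic acid cycle, dld-1, for the shared dihydrolipoamide dehydrogenase, had a thresholded peak (60.5, rank 211). A further 3, mdh-2 (49.2), aco-2 (47.7) and idhb-1 (34.3), were among the strongest 1000, and 9 (47.4%) had a pooled call. The 14 genes with import names (tomm-, tim-, timm- and tin-) had a thresholded peak at tomm-20, an outer membrane receptor gene (70.8, rank 173), and 8 pooled calls (57.1%). The 4 among the strongest 1000 were tomm-20, timm-17B.1 (45), tim-1 (40.6) and tin-9.2 (38.4), of which tim-1, taken in by its name, is a homologue of timeless and no import gene. Among the 8 coenzyme Q genes, 4 had a pooled call, none of them among the strongest 1000, the highest being coq-2 (23.4, rank 5154). Over all nuclear protein-coding genes the shares were 1.17% with a thresholded peak, 2.86% with a call among the strongest 1000 and 31.2% with a pooled call.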

How the data were processed

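ChIP-seq of tagged ZK546.5 in L3 larvae was deposited as calls on ce11 for replicates 1 and 2, for both pooled, and as an IDR-thresholded set, per the deposited file notes, which name alignments and 1 control file as the source. For the aligner, the caller and the IDR threshold no source used here gives a name or value, and the antibody label repeats the target. The signal value of each call is as deposited by the authors, its scale differs between lists, and lists ended at 30000 calls, so depth is unknown. Lists on ce10 were not used here.

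The 5′ ends are the outermost gene ends of Ensembl release 115 (same assembly). The strongest call with its summit within 500 bp was kept for each gene. Counts were set beside those over all nuclear protein-coding genes. No test was made, since there was 1 group and the members, lists and words were chosen with earlier results of these data known. Every member could be named, with full values for thresholded peaks, the strongest 1000 calls and the highest of each complex. There were 11 alternatives. Sequence is from the RefSeq copy of the assembly. The assignment step was tested on simulated data. Python 3.11.15, numpy 2.4.6, pandas 2.3.3 and matplotlib 3.10.9 were used.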

Additional observations from a re-analysis of the deposited data

How the results depend on the processing

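The number of members with a thresholded peak was 2 to 4 of 45 under all 11 alternatives, against 0.556% to 1.43% of all genes. With a replicate left out there is no thresholded set, and the count, 3 in each case, is of the 261 strongest calls of the other replicate. It was 4, through cox-6B, with every transcript 5′ end or RefSeq 5′ ends. With a window of 250 bp the other counts fell, to 13 members with a pooled call, 4 with a call in both replicates and 4 among the strongest 1000. The same shares of all genes fell too, to 17%, 5.17% and 1.68%. With 1000 bp, 31 members had a pooled call and 17 a call in both replicates, while the shares of all genes rose to 48.9% and 28.5%, so members and all genes lay closer together. With upstream summits only, 7 of 45 members had a call in both replicates, against 6.78% of all genes. With the strongest 50% of each list, 7 members had one in both (5.78% of all genes) and 4 were among the strongest 500 pooled calls (1.92%). The median rank was then 3078 (5769 over all genes). Among the strongest 1000 were 4 members without replicate 2 (2.22% of all genes) and 7 without replicate 1 (2.83%). The median rank was 5571 without replicate 1 (12156 over all genes) and 10305 without replicate 2 (12941). Why these values moved was not tested. The 250 bp window and the shortened lists hold fewer calls, while each replicate list held 30000, like the pooled list. No paired analysis was possible because there was 1 group. Depth was unknown, and 2 replicates with 1 control leave the weak calls undecided.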
